A study of Mus musculus with 2 samples.

Results

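The genes described here encode the proteins of the cytosolic ribosome. They were chosen by symbol: names that begin with Rpl or Rps followed by a number, Rpsa, and the stalk genes Rplp0, Rplp1 and Rplp2, each with at least 1 protein-coding transcript, without the Rps6k kinases. The rule found 83 of the 55536 genes in the tables. Of these, 77 are the core genes, 46 for the large and 31 for the small subunit, and 6 are related copies with a coding sequence of their own (Rpl3l, Rpl10l, Rpl39l, Rpl22l1, Rps27l and Rpl7l1). Another 6 symbols fitted the pattern but have no protein-coding transcript and were left out (Rps4l, Rps12l1, Rpl32l, Rpl6l, Rps3a2 and Rps3a3). Fau, which encodes a small-subunit protein fused to a ubiquitin-like protein, and Rack1, a scaffold on the small subunit, are not reached by the symbols and were followed beside them.

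The cytosolic ribosome translates the messenger RNAs made in the nucleus. Its small subunit reads the codons and its large subunit joins the amino acids. The proteins of each subunit are needed in near-equal number, and their messengers are among the most abundant of most tissues. Many begin with a run of pyrimidines at the very 5′ end, the 5′ TOP motif, through which the mTORC1 kinase and Larp1 control how much of the messenger is translated. Neurons make many of their proteins locally in dendrites and axons, where messengers of ribosomal proteins are also found. Mammalian genomes hold many processed copies of these genes, which arose by reverse transcription of their messengers.

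Total RNA of the hippocampus was measured in 2 libraries from male B6CASTF1/J mice, the hybrid of C57BL/6J and CAST/EiJ, aged 14 days. The libraries are biological replicates 1 and 2 of a single group, so the design has no comparison between conditions. Each label lists 3 males and 300 ng of input RNA. Whether the RNA of those males was pooled is not stated, and p-values here measure a difference between libraries against counting error only. Synthetic ERCC RNAs were spiked into these strand-specific libraries, which were depleted of ribosomal RNA. The tables assign reads to GENCODE M21 transcripts on mm10, a C57BL/6J genome, so reads from CAST/EiJ alleles were scored against the other parent's sequence.

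The tables hold 29144892 estimated gene counts in replicate 1 and 31755578 in replicate 2. Neuronal markers were high in both libraries: Slc17a7, the glutamate transporter of excitatory neurons, was at 663 and 687 TPM (a read share per transcript length, brought to the same total in each library). Prox1, a marker of dentate granule cells, was at 43.9 and 63.0 TPM. Prox1 differed between the libraries, and so did markers of some other cell types. Mbp, of myelin, was at 813 TPM in replicate 1 and 439 in replicate 2, and Ttr, of the choroid plexus, at 85.9 and 45.8. Hbb-bs, of red blood cells, was at 274 and 202, and Cldn5, of endothelium, at 28.7 and 39.4. Others differed less: Slc1a2, of astrocytes, was at 1039 and 1027 TPM, and Gad1, of interneurons, at 104 and 124. Csf1r, of microglia, was at 33.1 and 39.5, and Neurod6, of excitatory neurons, at 89.2 and 97.0. In whole tissue, fewer cells of a type and less RNA per cell cannot be told apart. Ddx3y, on the Y chromosome, had 1685 and 1796 counts, and Xist, which silences an X chromosome in females, had 8 and 9.

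The core genes formed an abundant and fairly even set. Together the 83 members held 0.573% of the gene counts of replicate 1 (exact Clopper-Pearson 95% interval 0.570 to 0.575) and 0.657% of replicate 2 (0.654 to 0.660), a mean of 0.615% ± 0.060 (SD, n = 2). Of nuclear protein-coding genes alone they held 0.727% and 0.809% of the counts and 3.43% and 3.80% of the TPM, the measure per length. The intervals cover counting error only. Over the 77 core genes the median was 177 TPM in replicate 1 and 209 in replicate 2, against a median of 14.9 over nuclear protein-coding genes with a mean of at least 1 TPM. Of the 77, 66 lay within 2-fold of their own median of 192 TPM, with 8 below that range and 3 above it. In the gene tables the small subunit was the more even. The SD of log2 TPM was 0.55 over its 31 genes and 0.95 over the 46 of the large subunit. The medians were 200.4 and 182 TPM. Reads placed on near-identical copies, described below, are left out of these values. In the second kind of table, laid out as kallisto output, the SDs were closer, at 0.50 and 0.75. There the medians in replicates 1 and 2 were 339 and 391 TPM for the small subunit and 348 and 395 for the large. Counts of core genes ran from 224 to 6119 in replicate 1 and from 287 to 7821 in replicate 2.

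Rpl41 encodes the smallest protein of the large subunit and was the highest member, at 801 TPM in replicate 1 and 930.0 in replicate 2. It lies at chr10:128548114-128549305 on the minus strand and ranked 17 among 22015 nuclear protein-coding genes. Rplp1, an acidic protein of the stalk that recruits elongation factors, was next at 554 and 672 TPM. Rps29, a zinc-binding protein of the small-subunit head, was at 419 and 469 TPM. Rpl38, which is needed in mice for normal patterning of the skeleton, was at 356 and 394 TPM. Rps28, beside the messenger exit, was at 325 and 410.4 TPM. All of them were higher in replicate 2. Values of neighbours in this order did not overlap down to Rpl38, and those of Rpl38 and Rps28 did. The order held for the gene tables only: in the second kind of table, laid out as kallisto output, Rpl41 was still highest (1920.0 and 2176 TPM), but Rpl38 (756 and 812) and Rpl31 (713 and 811), which overlapped, were next, and Rps29 (387 and 391) was near the core median of 363. Across the core genes, TPM and annotated length had a Spearman correlation of -0.42, a description over genes that share the same 2 libraries and the same length correction.

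**Figure D1:**
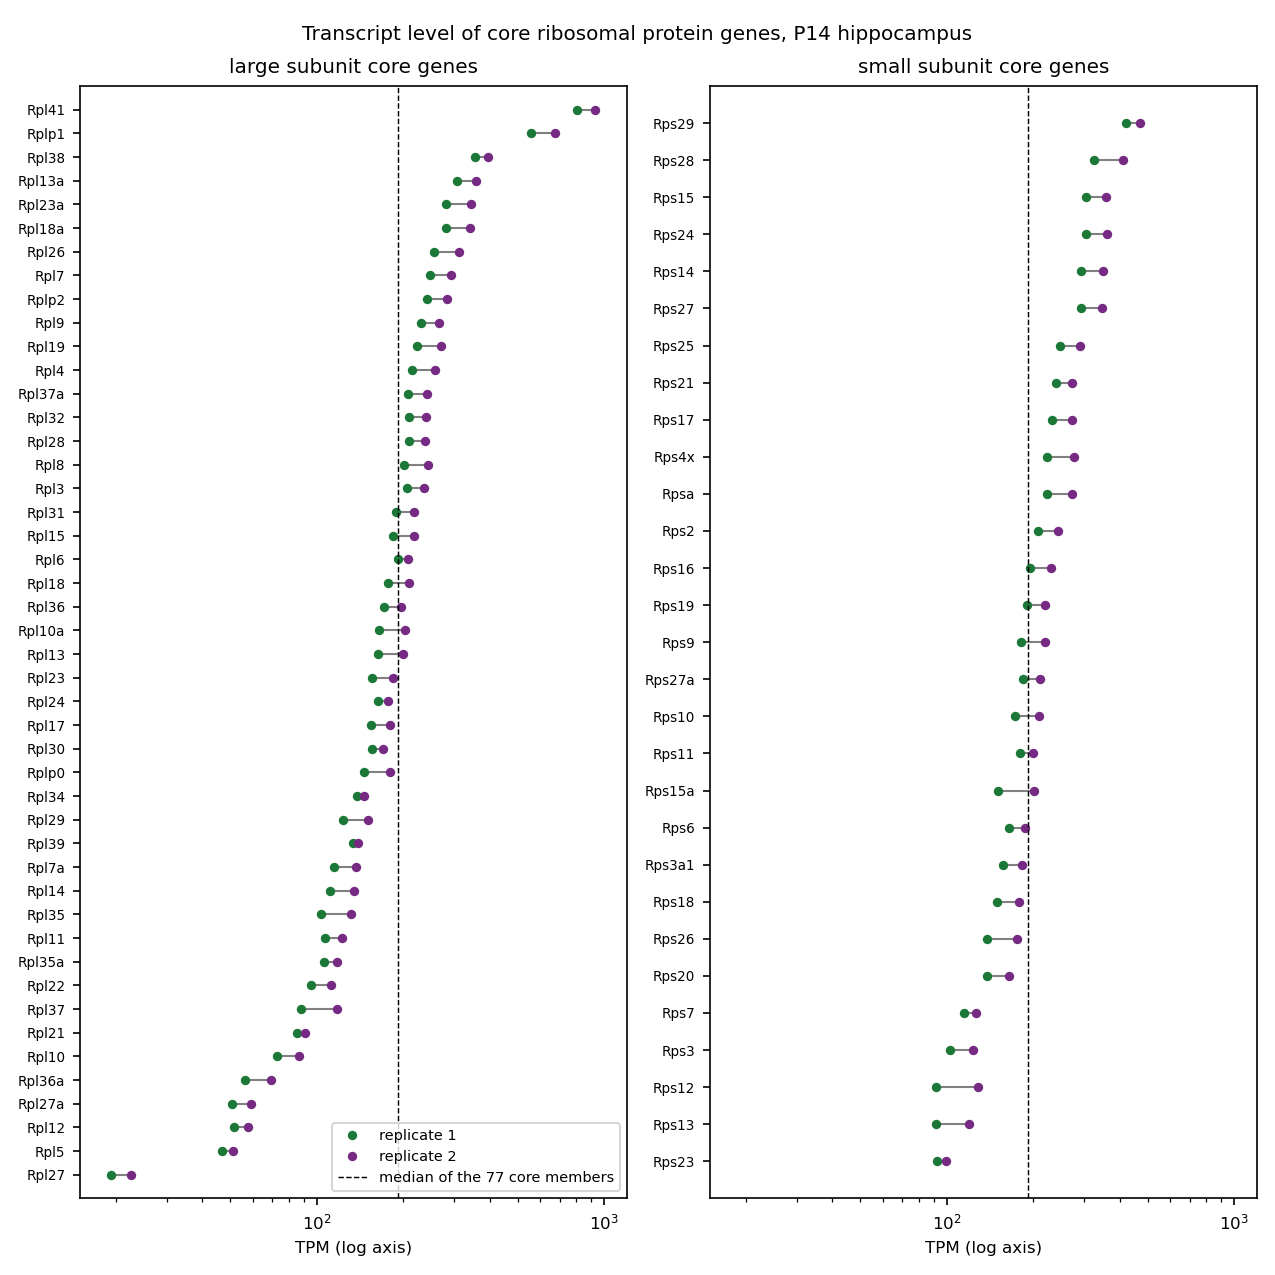
TPM on a log axis of core ribosomal protein genes, a few of which are not drawn, in replicate 1 (green) and replicate 2 (purple), with large-subunit genes at left and small-subunit genes at right, ordered by mean; the dashed line is the median of the 77 core genes, 192 TPM. Purple points lie to the right of green points for every gene drawn, and Rpl27, at 19.3 and 22.6 TPM, stands alone at the lower end.

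At the low end, Rpl27, a large-subunit protein, was at 19.3 and 22.6 TPM. Rpl5, which binds the 5S RNA, was at 46.8 and 51.1. Rpl12, at the base of the stalk, was at 51.4 and 57.6, Rpl27a at 50.7 and 58.9, and Rpl36a at 56.3 and 69.2. All 5 belong to the large subunit. The values of Rpl27 lay apart from the rest. Those of Rpl5 overlapped with Rpl27a but not with Rpl12, and Rpl12, Rpl27a and Rpl36a overlapped with each other. In the kallisto layout Rpl27 was at 261 and 278 TPM and Rpl27a at 402 and 498. Rpl12 (136 and 173 TPM), Rpl36a (163 and 209) and Rpl5 (178 and 197) stayed low, and Rpl36, at 80.7 and 85.2 TPM, was the lowest. There, 70 of the 77 core genes lay within 2-fold of their median.

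Near-identical copies of the members held more than 1 in 5 of the counts assigned to either in the gene tables. The coding sequence of the protein-coding transcript with the most counts was aligned for each member with blastn to all other GENCODE M21 transcripts. A copy was a gene with at least 95% identity over at least 90% of that sequence. The search found 562 copies of members, 545 of them annotated as pseudogenes, and 346 with counts. All but 3 core genes had at least 1 copy, and Rpl21 had the most, 56. In the gene tables the copies held 22.0% of the counts of members plus copies in replicate 1 and 22.0% in replicate 2. In the kallisto-layout tables they held 11.2% and 11.1%. Both kinds of table were made from the same libraries. The 300 genes that are named as pseudogenes of an Rpl or Rps gene, with the ending -ps, held 21846 and 27557 counts, against 9278 and 11297 in the kallisto layout.

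Coding sequences of 3 members are printed beside those of a copy to show how few letters set them apart. They are the first 90 bases of the coding sequence of a member and the matching bases of its copy, from GENCODE M21 transcripts, 5′ to 3′ on the sense strand, with differing bases in capitals. Rps23 sits at the decoding centre and its copy is Rps23-ps1 at chr3:37714740-37715164. Rpl3 lines the centre of peptide bond formation and its copy is Rpl3-ps1 at chrX:13202571-13203780. Rps7 is a small-subunit protein and its copy is Gm6472 at chrX:152909505-152910155.
Rps23: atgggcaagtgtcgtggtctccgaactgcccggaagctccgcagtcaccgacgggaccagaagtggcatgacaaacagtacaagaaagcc
Rps23-ps1: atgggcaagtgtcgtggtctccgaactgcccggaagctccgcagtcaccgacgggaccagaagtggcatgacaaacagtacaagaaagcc
Rpl3: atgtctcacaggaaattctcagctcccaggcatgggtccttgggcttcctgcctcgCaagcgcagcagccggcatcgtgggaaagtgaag
Rpl3-ps1: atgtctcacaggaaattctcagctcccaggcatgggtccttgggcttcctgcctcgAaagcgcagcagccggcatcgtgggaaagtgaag
Rps7: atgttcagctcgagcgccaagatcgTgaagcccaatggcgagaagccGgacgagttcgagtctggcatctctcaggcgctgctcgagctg
Gm6472: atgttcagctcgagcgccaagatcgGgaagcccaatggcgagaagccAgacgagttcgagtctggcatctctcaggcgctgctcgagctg

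Rps23 and Rps23-ps1 had no difference over 425 aligned bases, and the tables split them in opposite ways. The gene tables gave Rps23 813 and 911 counts and Rps23-ps1 1825 and 2222. The kallisto-layout tables gave Rps23 2680 and 3220 counts and Rps23-ps1 none. Summed with all 10 copies, Rps23 had 2652 and 3141 counts in the first tables and 2686 and 3222 in the second, so the sums agree to within 3% where the single values differed over 3-fold. Rpl3 and Rpl3-ps1 differed at 2 of 1209 bases, and there the tables gave close values: 2754 and 3537 counts for Rpl3-ps1 in the first, 2663 and 3321 in the second. Rps7 and Gm6472 differed at 3 of 585 bases. Gm6472 had 1652 and 2023 counts in the first tables and 934 and 1081 in the second, so that neither table put all counts on Rps7.

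Rpl27, Rpl10 and Rpl36a showed the same pattern as Rps23. Rpl27 had 224 and 287 counts alone in the gene tables but 1325 and 1540 with its 7 copies, against 1330 and 1516 in the kallisto layout, where the copies had none. Rpl10, which joins the large subunit late in its assembly, had 1035 and 1323 counts alone, 2955 and 3767 with its copies, and 2987 and 3790 in the second tables. Its copy Rpl10-ps3, annotated as protein-coding, held 1909 and 2419 counts in the first tables and none in the second. Rpl36a had 482 and 621 counts alone, 969 and 1220 with copies, and 975 and 1262 in the second tables. For other low genes both tables left counts on copies. The copies of Rpl5 held 41.1% and 45.1% of the summed counts in the second tables, mostly on Gm15500, those of Rpl12 47.7% and 44.5%, and those of Rpl27a 14.6% and 14.2%. The sums for Rpl5 were 4098 and 5063 counts in the first tables and 4100 and 5025 in the second.

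Over all core genes, 18 differed by more than 1.5-fold between the tables in both libraries when read alone, 12 of them higher in the kallisto layout and 6 lower. Among 14686 protein-coding genes tested, 2.46% and 1.23% did. With copies summed 10 differed so far, 6 of the 18 and 4 others, and the SD of the log2 ratio between tables fell from 0.75 to 0.47 in replicate 1 and from 0.75 to 0.48 in replicate 2. All 12 genes that were higher in the kallisto layout alone came within 1.5-fold. The 6 that stayed outside (Rpl36, Rps28, Rplp1, Rps29, Rpl19 and Rps21) and the 4 that passed 1.5-fold only with copies summed (Rps12, Rpl13, Rps15 and Rpl23a) were all lower in the kallisto layout. Rpl36 was the farthest apart, at 1142 counts with copies in replicate 1 against 208. The Spearman correlation of TPM between the tables was 0.52 over the core genes and 0.98 over protein-coding genes, as a description. With copies added, the core genes were more even: the SD of log2 TPM was 0.51 in place of 0.82, the median 258 TPM, and the lowest was no longer Rpl27 but Rpl22, at 95.2 and 112 TPM.

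**Figure D2:**
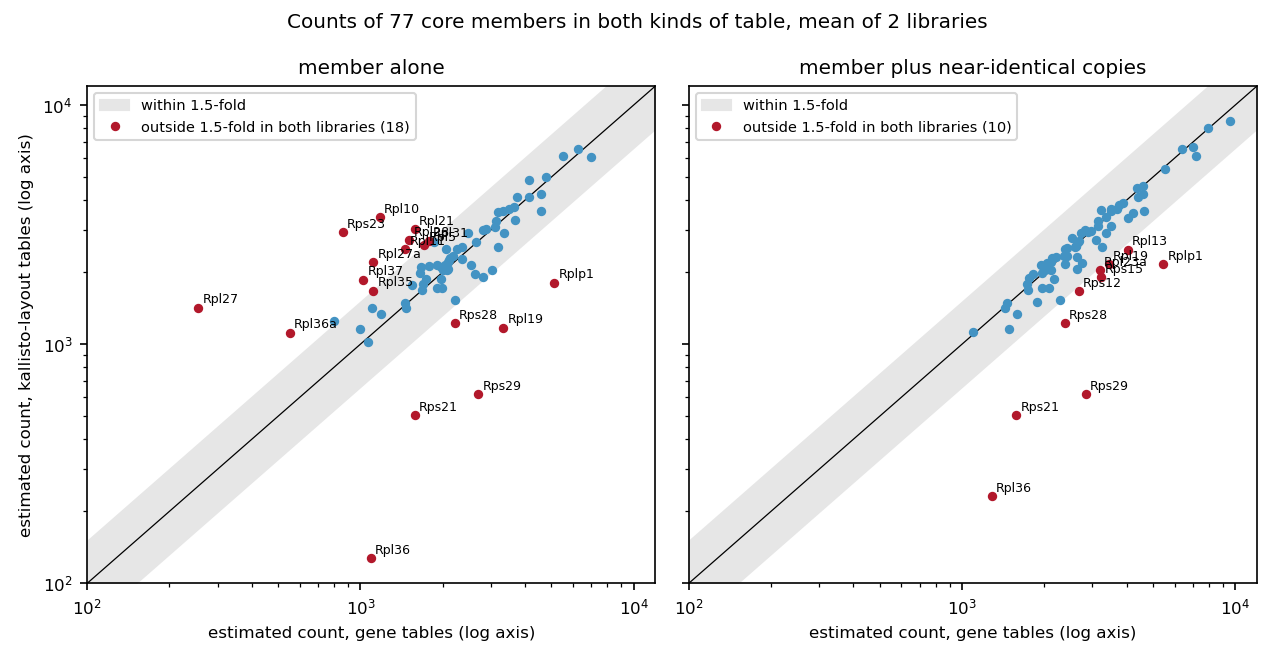
Estimated count (mean of 2 libraries, log axes) of the 77 core genes in the gene tables (x) and in the kallisto-layout tables (y), for the gene alone at left and summed with its near-identical copies at right; the grey band spans 1.5-fold and red points are genes outside it in both libraries. There are 18 red points at left and 10 at right, 6 of them the same genes, and all 10 are below the band.

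The authors deposited a posterior standard deviation for each count, which is large where reads match several genes. It was over 5% of the count for 4 of the 83 members and over 1% for 40, against 3.55% and 7.87% of protein-coding genes tested. Rpl10 had the highest value, 10.8% and 10.7%, and was the only member over 10%. Rps12 was at 9.75% and 7.38%, Rpl27 at 7.64% and 6.51%, and Rpl36a at 5.19% and 4.89%. Rps23 was at only 2.99% and 2.86%, although its value changed more than 3-fold between tables.

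Every tested member was higher in replicate 2. The libraries were compared gene by gene with a two-sided exact binomial test on the counts, scaled by TMM (a factor that centres most genes) and adjusted over all 18332 genes with a mean count of at least 10. This test compares these 2 libraries and takes counting as the only error. It called 59 of the 80 tested members, all higher in replicate 2 and all of them core genes, where it called 22.7% of all genes tested, 12.5% higher in replicate 2 and 10.2% higher in replicate 1. Among the 7968 genes with a mean count of at least 500, nearer to the members' depth, 35.4% were called, 22.8% higher in replicate 2 and 12.6% higher in replicate 1. All 77 core genes had a positive log2 ratio, between 0.004 and 0.44. Ratios were positive for 50.5% of all genes tested and for 60.3% of those with at least 500 counts. The median of the core genes was 0.18, or 1.14-fold, against 0.003 over all genes tested and 0.03 over the genes with 500 counts. The SD of the log2 ratio over core genes was 0.071, and counting alone would give 0.049. When edgeR's exact test was given a coefficient of variation of 0.1 between libraries, it called none of the 80 (1 at an unadjusted p under 0.05), against 0.944% of all genes. With 2 libraries of a single group the usual spread between animals cannot be estimated.

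Rps12, a small-subunit protein, had the largest ratio. It was at 91.5 TPM in replicate 1 and 128 in replicate 2, a log2 ratio of 0.44 (adjusted p = 7.0e-11, exact binomial test). Its processed copy Rps12l1 is identical over the whole coding sequence and is named here after its values were seen. That copy went the other way, from 232 counts in replicate 1 to 36.0 in replicate 2. The kallisto layout listed it at 0. Its posterior SD was 29.6% and 73.4% of its count, an error that the binomial test leaves out. Summed with its copies, Rps12 had a log2 ratio of 0.26. Rps26, at the messenger exit, was at 138 and 176 TPM (log2 ratio 0.29) and Rps28 at 325 and 410.4 (0.29). Rpl35, at the tunnel exit, was at 103 and 132 TPM (0.29), and the stalk protein Rplp0 at 146 and 180 (0.27). At the other end Rpl39 was at 134 and 139 TPM (0.004), Rpl34 at 138 and 146 (0.01), Rps23 at 92.4 and 99.4 (0.03), Rpl30 at 156 and 170.2 (0.05) and Rpl21 at 85.5 and 91.2 (0.05). None of these 5 passed the test. With copies summed, all 77 core genes were still positive, from 0.005 to 0.27 with a median of 0.18. There the log2 ratio was 0.005 for Rpl39, 0.03 for Rpl34, 0.11 for Rps23, 0.05 for Rpl30 and 0.05 for Rpl21. In that setting 66 of the 80 members were called, against 22.6% of all 18213 genes tested.

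The log2 ratios of Mbp, Ttr and Hbb-bs were -0.90, -0.95 and -0.48, all lower in replicate 2, while Prox1 and Cldn5 were higher in replicate 2 by 0.44 and 0.41. Slc17a7 differed by 0.004, and Slc1a2, Gad1, Neurod6 and Csf1r by -0.04, 0.08, 0.07 and 0.12. Their part in the ratio of the ribosomal protein genes was not tested.

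By position in the ribosome, each of the following lists had only positive ratios, where 50.5% of all genes tested were positive. Their counts stand against 22.7% called over all genes and 35.4% of those with at least 500 counts, and none was called by edgeR with the coefficient of variation of 0.1. In the stalk list (Rplp0, Rplp1, Rplp2 and Rpl12), 3 of 4 were called, and Rplp2 was at 242 and 285 TPM. The 5S particle, Rpl5 with Rpl11 (107 and 123 TPM), had neither called, with log2 ratios of 0.08 and 0.11. On the wall of the exit tunnel, Rpl4 was at 215 and 258 TPM and Rpl17 at 154 and 179.6, both called, and Rpl39 was not. At the tunnel exit 4 of 5 were called: Rpl19 (223 and 269.9 TPM), Rpl23a (283 and 343), Rpl26 (256 and 313) and Rpl35, with Rpl31 (188 and 218) not called. In the list for the messenger channel and decoding, 5 of 6 were called: Rps2 (207 and 244 TPM), Rps3 (103 and 123), Rps15 (305 and 359), Rps26 and Rps28, and not Rps23. All 13 genes of the small-subunit head were called. Of the 16 genes whose human counterparts are mutated in Diamond-Blackfan anaemia, 10 were called, with a median log2 ratio of 0.16. Reads placed on near-identical copies are left out of these ratios. With copies summed, the log2 ratio was 0.17 for Rpl5, 0.16 for Rpl11, 0.19 for Rpl12, 0.12 for Rpl31, 0.11 for Rps23 and 0.005 for Rpl39. These lists overlap, and the differences between them were not tested.

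Other genes of translation are given beside the ribosomal proteins, with no test of the difference. Their counts stand against 22.7% called over all genes tested and 35.4% of those with at least 500 counts. Of all genes tested, 50.5% had a positive ratio. Under edgeR with the coefficient of variation of 0.1, an alternative chosen after seeing the data for these lists, none of the 152 genes tested from the elongation factors to the mitochondrial ribosome was called (2 at an unadjusted p under 0.05). Of the genes outside the symbol rule, Fau was at 244 and 316 TPM and Rack1 at 120 and 141, both called higher in replicate 2 (log2 ratios 0.31 and 0.27). Of 7 genes of elongation, 5 were called, each higher in replicate 2, and the median log2 ratio was 0.16. Eef1a1, which delivers aminoacyl-tRNA, was at 1422 and 1714 TPM, Eef2, the translocase, at 426 and 491, Eef1a2 at 385 and 419, and Eif5a at 189 and 209. Eef1g had the largest ratio of them (82.8 and 101 TPM, log2 ratio 0.25), and Eef1d the lowest, -0.001. Of 18 initiation factors, 13 were called, all higher in replicate 2, and all 18 ratios were positive with a median of 0.12. Eif4g2, Eif4a2, Eif1 and Eif4a1 had the highest levels, at 359 and 372, 323 and 352, 302 and 320.5, and 175 and 186 TPM. Eif3k had the largest ratio, 0.24, and Eif4a2 the smallest, 0.05.

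The share called over all genes, 22.7%, and the share with a positive ratio, 50.5%, also stand beside the next 4 lists. Other known 5′ TOP messengers, 8 in all, had 3 called (Pabpc1, Npm1 and Nap1l1), and the median log2 ratio was 0.10 with all 8 positive. Tpt1, a growth-related TOP messenger, was at 491 and 506 TPM with a log2 ratio of 0.03, and Pabpc1, the poly(A)-binding protein, at 188 and 205 with 0.15. Of 28 ribosome assembly genes, 3 were called (Pes1, Bop1 and Ubtf), and 18 ratios were positive with a median of 0.04. Ncl, the nucleolar protein nucleolin, was at 65.8 and 72.2 TPM. In the list of mTORC1 and TOP control 3 of 13 were called, Rptor higher in replicate 2 and Tsc1 and Rps6kb2 higher in replicate 1, with a median of -0.03. Larp1 was at 36.3 and 39.4 TPM and Mtor at 33.6 and 38.2. Eif4ebp1 was lowest, at 1.88 and 0.49 TPM. The 78 mitochondrial ribosomal protein genes, which build a separate ribosome, had a median of 22.3 TPM. Of them, 4 were called, 3 higher in replicate 2 and 1 lower, and 59 ratios were positive with a median of 0.08. Mrps11 had the largest ratio, 0.53, at 13.8 and 18.8 TPM.

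**Figure D3:**
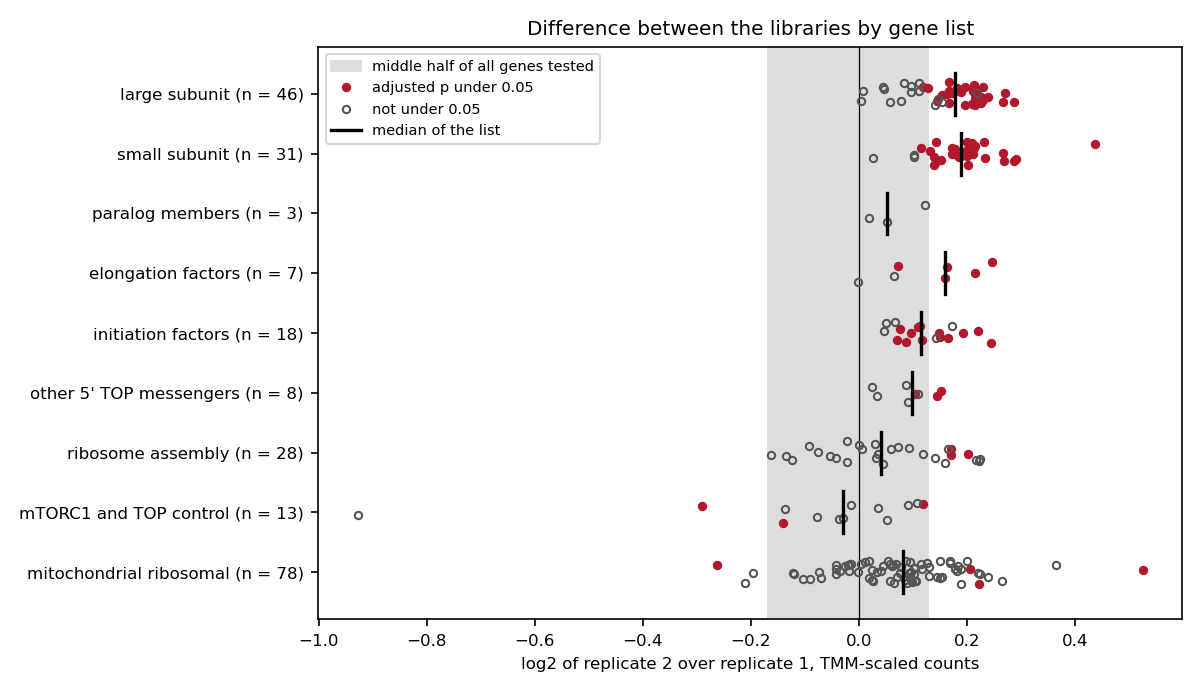
The log2 ratio of replicate 2 over replicate 1 (TMM-scaled counts) for tested genes of each list, with filled red points for an adjusted p under 0.05 by the exact binomial test, open points for the rest, and a black bar at the list's median; the grey band is the interquartile range of all 18332 genes tested. All large- and small-subunit points lie right of 0, with medians of 0.18 and 0.19, and the mTORC1 list has a median of -0.03.

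The related copies with their own coding sequence ranged from close to the canonical gene in whole-gene TPM to undetected. Rpl22l1 was close to Rpl22, though lower in both libraries: it had 80.1 and 84.6 TPM, and Rpl22 had 95.2 and 112. The mean log2 difference was 0.33 ± 0.11 (SD, n = 2), below the limit of 0.5 set for calling a pair different. The kallisto layout gave 0.02 ± 0.10. These values count all transcripts of a gene. Of the TPM of Rpl22l1, protein-coding transcripts held only 7.64% and 10.4%, against 95.1% and 96.2% for Rpl22. In the kallisto layout these shares were 38.4% and 46.7%, against 26.8% and 27.1%. Rps27l, a target of p53, was at 20.8 and 22.1 TPM, 14.8-fold below Rps27 at 292 and 346. Rpl7l1 was at 19.9 and 26.5 TPM, 11.7-fold below Rpl7 at 248 and 294. Rpl3l, known from heart and skeletal muscle, had 8 and 4 counts, or 0.33 and 0.15 TPM, where Rpl3 had 206 and 236 TPM. Rpl10l, known from testis, had 1 and 0 counts, where Rpl10 had 72.5 and 86.9 TPM. Rpl39l, also known from testis, had none in either library, where Rpl39 was at 134 and 139 TPM. A count of 0 allows up to 3 counts, so Rpl39 was at least 521-fold higher in replicate 1 and at least 575-fold in replicate 2, with the floor taken per library.

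Among symbol-related genes outside the rule, Rps4l, a transcribed pseudogene, was at 13.5 and 13.8 TPM, 18.1-fold below Rps4x at 224 and 278. Rps27rt, a retrogene, was at 11.5 and 13.5 TPM in the gene tables, 25.3-fold below Rps27, with a posterior SD of up to 32.5% of its count. Rpl36al was above Rpl36a in the gene tables (76.1 and 87.8 against 56.3 and 69.2 TPM, mean log2 difference -0.39) and below it in the kallisto layout (0.38), and neither passed the limit. Rps12l1 was at 38.4 and 5.58 TPM, with a posterior SD of up to 73.4% of its count. None of the 3 related copies with enough counts to test (Rpl22l1, Rps27l and Rpl7l1) was called between the libraries, and their log2 ratios were 0.02, 0.05 and 0.12.

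**Figure D4:**
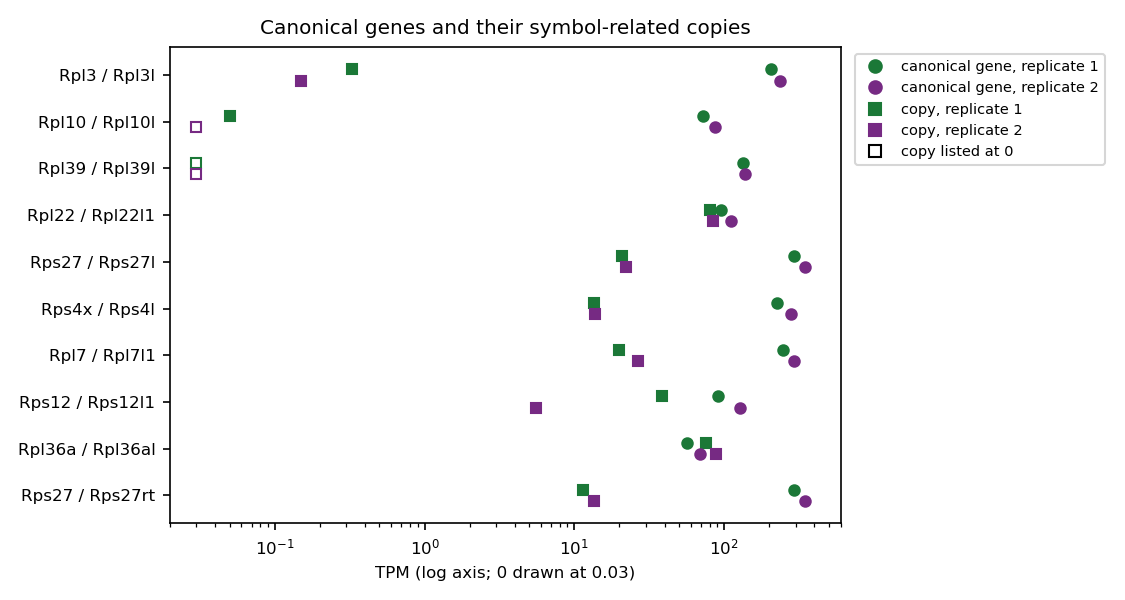
TPM on a log axis of 10 pairs of a canonical gene (circles) and a symbol-related copy (squares) in replicate 1 (green) and replicate 2 (purple), with open squares for copies listed at 0. Rps27 is drawn both with Rps27l and with Rps27rt. Rpl22l1 and Rpl36al lie beside their canonical genes, and Rpl3l, Rpl10l and Rpl39l lie far to the left.

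The members have 498 annotated transcripts, 232 of them protein-coding. Protein-coding transcripts held 82.4% ± 0.056 (SD, n = 2) of the members' TPM, retained-intron transcripts 8.90% ± 0.52, processed transcripts 4.88% and transcripts subject to nonsense-mediated decay 3.86%. The kallisto layout gave 71.1% to protein-coding and 15.8% to retained-intron transcripts. Of the 82 members with TPM, 68 were led by a protein-coding transcript, 6 by a retained-intron transcript, 5 by a processed transcript and 3 by one subject to decay. The libraries shared the leading transcript for 80 of the 81 members with TPM in both, and the kinds of table shared it for 35.

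The lowest protein-coding shares in the isoform tables were those of Rps16 (1.96% and 1.91% of its TPM), Rps26 (1.70% and 2.26%), Rpl35 (4.55% and 3.62%), Rps20 (5.08% and 4.71%) and Rpl22l1 (7.64% and 10.4%), apart from Rpl39l, which had no TPM. Rps16 was led by the retained-intron transcript Rps16-203 in both tables, at 64.0% and 58.8% in the first. Rps26 was led by the retained-intron transcript Rps26-202, at 96.7% and 97.2%, and in the kallisto layout by the protein-coding Rps26-201, at 54.3%. Rps20 was led by Rps20-201, a retained-intron transcript, in both. Across members 14 had a protein-coding share under 50% in the isoform tables and 21 in the kallisto layout, and 8 were under 50% in both. Rps24, whose last exons are spliced differently between tissues, was led by Rps24-202 (519 bases) with 93.3% and 95.1% of its TPM in the isoform tables. The kallisto layout gave Rps24-207 (714 bases) 59.5% and 59.3%. Both encode protein, and libraries differed by less than 2 percentage points within each table.

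**Figure D5:**
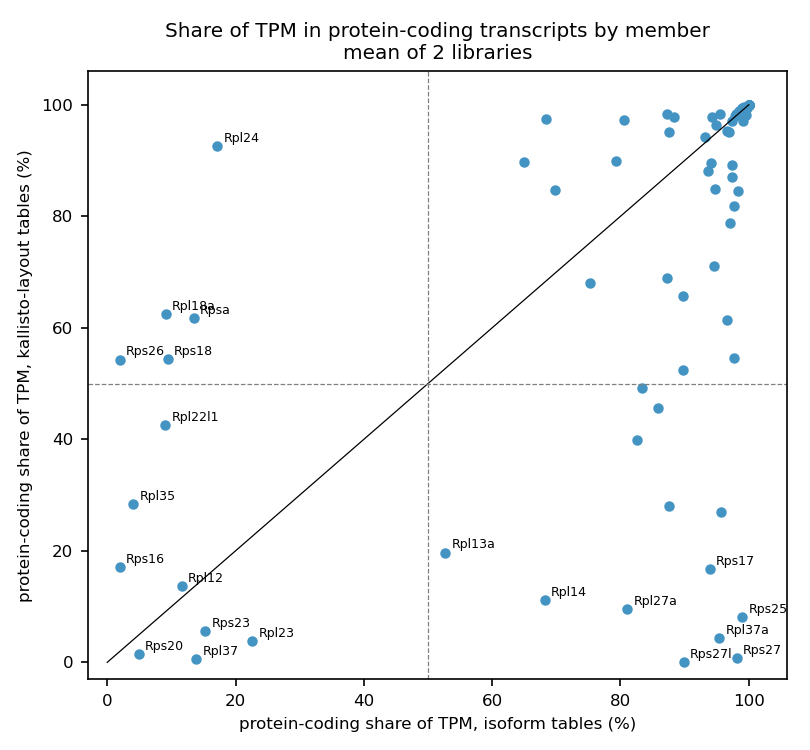
Share of each member's TPM in protein-coding transcripts (percent, mean of 2 libraries) in the isoform tables (x) and in the kallisto-layout tables (y) for members with TPM in both libraries, a few of which are not drawn; dashed lines mark 50% and the solid line equal shares. The 8 members at lower left, among them Rps16, Rps20 and Rpl35, are under 50% in both tables, and others such as Rpl24 and Rps27 lie far from the line.

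The annotated starts of the members were searched for the pyrimidine tract of 5′ TOP messengers, a C at the first base followed by at least 4 bases that are each C or T, on the sense strand. The RefSeq promoter table (GRCm38.p6), which spans 250 bases before to 50 after each start, held 63 members with 75 starts. A tract began exactly at a start in 13 of the 63 (20.6%), against 2.71% of all 16519 genes in that table with a protein-coding transcript and 2.99% of those with a mean of at least 1 TPM. Within 5 bases of the start it was found in 29 (46.0%), against 21.8% of all and 24.0% of those with at least 1 TPM. At the first base of the leading protein-coding GENCODE M21 transcript, an alternative chosen after seeing the data, 10 of 80 members (12.5%) had a tract and 22 (27.5%) had one within 5 bases after it, against 2.33% and 10.5% of genes with a mean of at least 1 TPM. The 5 members with the longest tracts are printed with the highest and the lowest core gene, which have no tract at their start. Each run is 30 bases on the gene's strand, 10 before the start and 20 from it, with the tract in capitals.
Rpl15, chr14:18270967-18270996, minus strand: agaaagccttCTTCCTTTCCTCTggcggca
Rpl35, chr2:39005112-39005141, minus strand: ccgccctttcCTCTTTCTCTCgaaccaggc
Rps10, chr17:27635225-27635254, minus strand: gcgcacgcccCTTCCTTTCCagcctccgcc
Rps18, chr17:33955646-33955675, minus strand: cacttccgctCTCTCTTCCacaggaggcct
Rps6, chr4:86857348-86857377, minus strand: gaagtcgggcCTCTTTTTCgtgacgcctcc
Rpl41, chr10:128549149-128549178, minus strand: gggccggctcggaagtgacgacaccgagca
Rpl27, chr11:101442235-101442264, plus strand: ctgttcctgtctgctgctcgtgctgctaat

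The tract of Rpl15 runs for 13 bases and that of Rpl35 for 11. An annotated start that is off by a few bases loses an exact match, so the absence of a tract says only that these letters are not in that place. The other genes with a tract at the start were Rpl14, Rpl28, Rpl35a, Rpl38, Rplp2, Rps15a, Rps21 and Rps27. The 13 core genes with a tract and the 44 without it had similar levels and ratios: medians of 191 and 176 TPM, and median log2 ratios of 0.18 and 0.20, a difference that was not tested. Of the 13, 10 were called between the libraries, and of the 44, 33. These counts stand against 22.7% of all genes tested and 35.4% of those with at least 500 counts.

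The same 300-base windows were searched on both strands for 4 short motifs. CCGGAAG, the site of ETS factors, was in 41.3% of the 63 members, in 13.3% of all genes of the table and in 19.2% of those with a mean of at least 1 TPM. The YY1 motif AANATGGC, where N is any base, was in 20.6%, 7.59% and 9.76%. The GC box GGGCGG was in 61.9%, 51.0% and 70.0%, so the members lay above all genes and below the expressed ones. TATAAA was in 11.1%, 14.3% and 8.39%, the reverse order. The motifs do not contain one another, though matches can lie in the same window, and a match is a description of letters only. The 24 core genes with CCGGAAG had a median of 195 TPM and the 33 without it 176. The other motifs went the other way. Medians with and without the motif were 176 and 200 TPM for the GC box, 176 and 182 for YY1, and 149 and 184 for TATAAA. These differences were not tested.

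The 83 members lie on 19 chromosomes, 14 of them on chromosome 7. Rpl10, Rpl36a, Rpl39 and Rps4x are on the X chromosome, and none is on the Y. Their log2 ratios between libraries of 0.22, 0.23, 0.004 and 0.27 lay within the range of the other core genes, apart from Rpl39, which set its lower end.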

How the data were processed

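The libraries are 2 biological replicates of 1 group. Expected (estimated) counts and TPM per gene were deposited by the authors, in the layout of RSEM per the file headers. Per the file headers, the isoform tables also give each transcript's percent of the gene TPM, and a second set of transcript tables in the layout of kallisto gives estimated counts and TPM. The posterior mean and SD of each count are scores deposited by the authors. The build is mm10 with GENCODE M21, per the labels and the deposited notes. The name of the aligner was not given in the sources used here.

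Counts were rounded and scaled with TMM (edgeR 4.0.16, R 4.3.3). Libraries were compared with an exact binomial test in Python 3.11.15 (scipy 1.17.1) with Benjamini-Hochberg adjustment over all genes with a mean count of at least 10, a threshold of 0.05 and a prior count of 0.5 in log2 ratios. The test was run on simulated data first. DESeq2 1.42.0 size factors and ERCC totals were alternatives. Copies were found with blastn 2.17.0, a step added after seeing the data. Pairs of genes counted as different where the log2 ratio (0.1 TPM added) had 1 sign in both libraries and a mean above 0.5 and above 2 SD. Members and lists were chosen with earlier results of these data known. Genes named are the 5 highest and 5 lowest core genes, the 5 largest and 5 smallest log2 ratios, related copies with their canonical genes, the structural lists, members with a posterior SD over 10%, the 5 lowest protein-coding shares, Rps24, and up to 4 of the highest genes of other lists with their extreme ratios. Others, such as the genes of the paragraphs on copies, were named after their values were seen. A few genes are not reported here by name.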

Additional observations from a re-analysis of the deposited data

How the results depend on the processing

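No paired analysis was possible because there is a single group of 2 libraries. The median level of the core genes, 192 TPM, became 363 in the kallisto layout, 429 when TPM was rescaled to nuclear protein-coding genes, and 258 with near-identical copies added, an alternative chosen after seeing the data. Leaving out either replicate gave 177 to 209 TPM, 0.573% to 0.657% for the share of counts, 8 pairs called in either case where 7 of 10 were called with both, and 67 to 68 members led by a protein-coding transcript. As a share of nuclear protein-coding counts the members held 0.768%. The 59 members called between libraries became 56 to 75 under other scalings, filters, tables and member sets. The share called over all genes moved too. It was 22.7% in the main setting, 35.5% with ERCC totals (75 members) and 25.3% with kallisto-layout counts (69). It was 28.3% at a mean count of at least 50 (59 members) and 13.6% with no filter beyond 1 count (57). The edgeR exact test, at an assumed coefficient of variation of 0.1, called 0 members (1 at an unadjusted p under 0.05). It called 0.944% of all genes. Under that test the related lists went from 31 of 152 called, against 22.7% of all genes, to 0 (2 unadjusted). With ERCC totals as the scale, all genes had a median log2 ratio of 0.11 in place of 0.003, and members 0.29 in place of 0.18. All 80 tested members stayed positive under each scaling and table. The share of all genes with a positive ratio moved as well. It was 50.5% in the main setting, 54.4% with DESeq2 size factors, 68.7% with ERCC totals and 51.2% with kallisto-layout counts. Members with uncertain assignment numbered 4 at 5% of the count, 20 at 2% and 1 at 10%. The -ps genes held 11.6% of the counts of members and -ps genes, and 5.08% in the kallisto layout. A tract within 5 bases of the start was found in 29 members in place of 13 exactly at it. The Rpl36a to Rpl36al difference turned from -0.39 to 0.38 in the kallisto layout; the cause was not tested. Rpl3l, Rpl10l and Rpl39l lay near or under 3 counts. Depth also bore on calls: Rpl27, at 224 and 287 counts, was not called at a log2 ratio of 0.22, while Rps25, at 1914 and 2327, was called at 0.14. The value of Rpl27 leaves out the reads on its copies. Summed with them it had 1325 and 1540 counts and a log2 ratio of 0.08.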

Other observations

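A single processed copy could move between the libraries far more than any member. Gm10163, a copy of Rpl21 with 2 differences in its coding sequence, had 1182 counts in replicate 1 and 133 in replicate 2, while Rpl21 had 1480 and 1683. The posterior SD of Gm10163 was 42.7% and 73.8% of its count. The kallisto layout gave it 184 counts in replicate 1 and fewer than 1 in replicate 2. Summed with its 56 copies, Rpl21 had 4084 and 4663 counts in the gene tables and 4238 and 4753 in the kallisto layout. Rps2-ps13, a copy of Rps2 with 7 differences, was the copy with the most counts, 3496 and 4600, beside 3658 and 4629 for Rps2 itself. All of these genes were named after their values were seen.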
